A study of Mus musculus with 4 samples.

Results

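Lysozyme, defensins and other antimicrobial products of the small intestinal crypt were followed in RNA from sorted Lgr5-GFPhigh stem cells through 8 genes: Lyz1, Defa17, Defa24, Mmp7, Ang4, Itln1, Reg3b and Reg3g. These were chosen by name and all 8 were found among the 18436 genes of the deposited table. Every mouse carried the Lgr5-EGFP-IRES-creERT2 allele, in which the Lgr5 gene drives green fluorescent protein and a Cre recombinase that tamoxifen switches on. By the study's account its mice had a C57BL/6 background. The 2 Lgr5-CREPTWT mice had intact CREPT and the 2 Lgr5-CREPTKO mice carried CREPT fl/fl. Both genotypes were given 1 mg of tamoxifen daily over 5 days and the cells were collected by flow cytometry on day 7. The study's animals were 6 to 8 weeks old and of both sexes, and the sex of each sequenced mouse is not given in the sources used here. The Lgr5 allele is used in the stem cells of the crypt base, so the Cre acts there. A deletion made there is inherited by the descendants of those cells. Values are FPKM, the fragments of a gene scaled to the length of its transcript and to the mapped fragments of the library, with 1 library per mouse.

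Rprd1b, which encodes CREPT, was 17.7 and 18.1 FPKM in the Lgr5-CREPTWT mice and 6.65 and 7.36 FPKM in the Lgr5-CREPTKO mice. Olfm4, an abundant marker of Lgr5+ stem cells, was between 4932 and 5351 FPKM in all 4 mice, and Lgr5 itself was between 37.7 and 60.1 FPKM. The FPKM of all genes summed to between 468830 and 499327 per mouse, and the table carries no read counts, so the depth of each library is unknown. Collagen, smooth muscle and endothelial genes were near 0, at a sum of at most 0.38 FPKM over 6 markers.

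Paneth cells sit between the Lgr5+ stem cells at the bottom of the crypt, supply them with growth signals, and release granules of lysozyme and alpha-defensins, which damage bacterial membranes and cell walls. Alpha-defensins are made as inactive precursors, and in the mouse the metalloprotease matrilysin, encoded by Mmp7, cuts them to their active form. Reg3b and Reg3g are C-type lectins that bind bacteria, are made by enterocytes, goblet cells and Paneth cells, and are induced by the microbiota and by interleukin-22. RNA of a sorted bulk population cannot tell fewer cells of a type from less RNA per cell.

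In these cells no member differed between the genotypes by the test across all genes, and the largest differences lay between mice of the same genotype. Of the 8 genes, 0 had an adjusted p below 0.05 (limma's moderated test, Benjamini-Hochberg adjustment) and 0 had an unadjusted p below 0.05, where 3.08% and 24.5% of the 12621 genes tested did. With a log2 fold change beyond 1 in either direction added to the adjusted p, 1.14% of the genes tested passed. The log2 fold change, Lgr5-CREPTKO minus Lgr5-CREPTWT on the log2(FPKM + 0.5) scale, was above 0 for 5 members and below 0 for 3, with a median of 0.20 beside -0.01 over all genes tested, and of -0.19 without Defa17 and Defa24. Lgr5-CREPTKO mouse 2 was above Lgr5-CREPTKO mouse 1 in 8 of 8 members and at least 2-fold above it in 7 of 8. Among all genes tested, mouse 2 was at least that far above mouse 1 in 2.08%, and in 0.809% of the 9020 genes whose mean reached 5 FPKM. With 2 mice per genotype an exact permutation test (two-sided) has a smallest possible p of 0.333, so the p-values given here depend on limma's pooling of variance over genes.

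**Figure D1:**
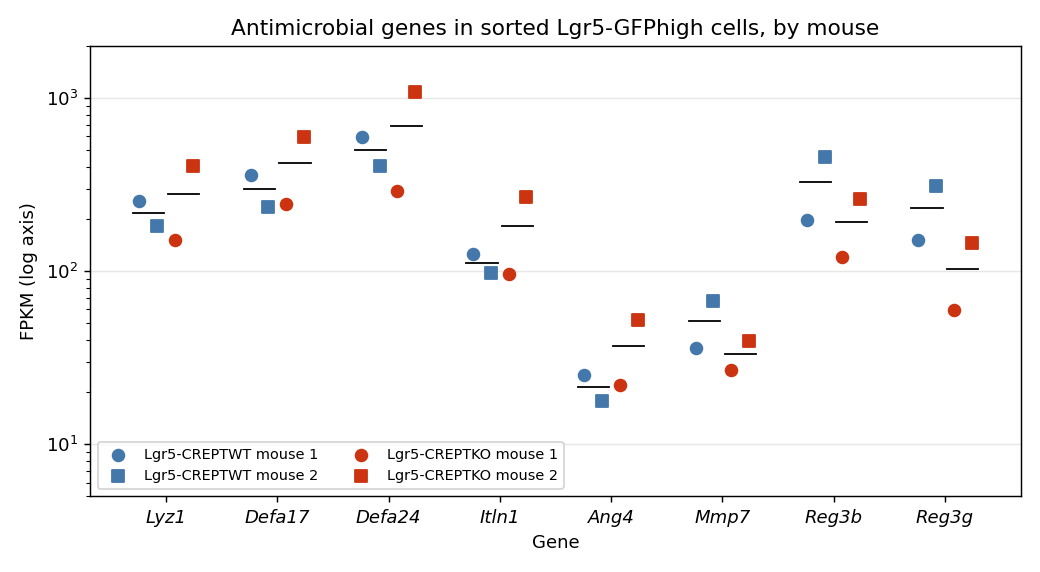
FPKM of the 8 genes on a log axis, with 1 point per mouse (blue, Lgr5-CREPTWT, and red, Lgr5-CREPTKO; circles, mouse 1, and squares, mouse 2) and a black line at each genotype's mean. For Lyz1, Defa17, Defa24, Itln1 and Ang4 the red square is the highest of the 4 points, and for Mmp7, Reg3b and Reg3g the blue square is.

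Lyz1 encodes the lysozyme of Paneth cell granules, which cleaves bacterial peptidoglycan, and lies on chromosome 10 (chr10:117287795-117292868, GRCm38.p6). It was 254 and 182 FPKM in the Lgr5-CREPTWT mice and 152 and 407 FPKM in the Lgr5-CREPTKO mice. The highest and the lowest values both belonged to the Lgr5-CREPTKO mice, 2.68-fold apart, and they enclosed both Lgr5-CREPTWT values. The log2 fold change was 0.21 (SE 0.479, 95% interval -1.02 to 1.44), with an adjusted p of 0.831 (limma). Only 1.83% of the genes tested differed more between the Lgr5-CREPTKO mice. Lyz2, the lysozyme of macrophages, was 0.35, 0.92, 0.03 and 1.05 FPKM in the mice in the same order. It shares 16.1% of the 50-base words of Lyz1 transcripts in GENCODE M21, so a small part of its reads can count for either gene.

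Defa17 and Defa24 encode alpha-defensins, called cryptdins in the mouse, and are 2 of a large cluster of near-identical genes on chromosome 8 (Defa17, chr8:21655767-21656736, and Defa24, chr8:21734494-21735471). Every 50-base word of their transcripts was looked up in the transcripts of other genes: 92.0% of the words of Defa17 and 28.1% of those of Defa24 occur in another gene, so the division of reads among relatives is uncertain, above all for Defa17. The last 120 bases of their coding sequences, from the RefSeq assembly and GENCODE M21 models, are shown with those of Defa23, which is described further on, because they show how few bases separate these rows. Capitals mark the bases that differ from Defa17.
Defa17: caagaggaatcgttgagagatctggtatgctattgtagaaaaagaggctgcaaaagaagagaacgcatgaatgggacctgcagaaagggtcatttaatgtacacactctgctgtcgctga
Defa24: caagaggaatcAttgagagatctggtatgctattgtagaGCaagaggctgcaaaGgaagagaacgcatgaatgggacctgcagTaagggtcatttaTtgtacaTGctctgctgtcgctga
Defa23: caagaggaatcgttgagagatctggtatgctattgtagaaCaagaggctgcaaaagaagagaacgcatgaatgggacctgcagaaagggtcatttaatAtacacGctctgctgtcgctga
Over the 282 bases of the whole coding sequence Defa24 was 95.7% and Defa23 97.9% identical to Defa17, and the stretches shown differ from Defa17 at 8 and 3 bases.

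Defa24 had the highest level of the 8 members, with 592 and 406 FPKM in the Lgr5-CREPTWT mice and 289 and 1081 FPKM in the Lgr5-CREPTKO mice. The Lgr5-CREPTKO mice were 3.74-fold apart, the widest gap among the members, and again enclosed the other genotype. Between genotypes its log2 fold change was 0.19 (SE 0.630, 95% interval -1.43 to 1.81; adjusted p = 0.886, limma). Defa17 was 361 and 235 FPKM in the Lgr5-CREPTWT mice and 245 and 597 FPKM in the Lgr5-CREPTKO mice. Here Lgr5-CREPTWT mouse 2 was the lowest, Lgr5-CREPTKO mouse 2 the highest, and the genotypes overlapped. Defa17 had a log2 fold change of 0.39 (SE 0.456, 95% interval -0.78 to 1.56; adjusted p = 0.648, limma). Defa24 was above Defa17 in 4 of 4 mice, by a ratio of 1.64 and 1.73 in the Lgr5-CREPTWT mice and of 1.18 and 1.81 in the Lgr5-CREPTKO mice, so Lgr5-CREPTKO mouse 1 had the lowest ratio.

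Mmp7, the protease that activates the alpha-defensin precursors (chr9:7692090-7699585), was 36.0 and 67.0 FPKM in the Lgr5-CREPTWT mice and 26.7 and 39.7 FPKM in the Lgr5-CREPTKO mice. Lgr5-CREPTWT mouse 2 was the highest and the genotypes overlapped by 1 value, since Lgr5-CREPTWT mouse 1 was below Lgr5-CREPTKO mouse 2. Mmp7 had a log2 fold change of -0.59 (SE 0.339, 95% interval -1.46 to 0.29; adjusted p = 0.356, limma). Mmp7 was the single member whose Lgr5-CREPTKO mice were less than 2-fold apart, at 1.48-fold. It did not keep a fixed ratio to the defensins' partner Lyz1: the ratio of Mmp7 to Lyz1 was 0.142 and 0.369 in the Lgr5-CREPTWT mice and 0.176 and 0.0975 in the Lgr5-CREPTKO mice.

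Ang4, an angiogenin-family ribonuclease of Paneth cells that kills bacteria (chr14:51763892-51773590), was 24.9 and 17.7 FPKM in the Lgr5-CREPTWT mice and 21.9 and 52.0 FPKM in the Lgr5-CREPTKO mice. Lgr5-CREPTKO mouse 2 stood above the other mice and Lgr5-CREPTKO mouse 1 lay between the Lgr5-CREPTWT mice. Ang4 had a log2 fold change of 0.67 (SE 0.423, 95% interval -0.42 to 1.76; adjusted p = 0.392, limma). Itln1, a lectin that binds sugars found on microbes (chr1:171518123-171535325), was 126 and 97.2 FPKM in the Lgr5-CREPTWT mice and 96.4 and 269 FPKM in the Lgr5-CREPTKO mice. The lower Lgr5-CREPTKO mouse was nearly level with the lower Lgr5-CREPTWT mouse, and the other Lgr5-CREPTKO mouse was the highest. Itln1 had a log2 fold change of 0.54 (SE 0.486, 95% interval -0.71 to 1.79; adjusted p = 0.541, limma).

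Reg3b and Reg3g, the inducible C-type lectins, both lie on chromosome 6, in opposite orientation and apart from each other (Reg3b, chr6:78370885-78373466, plus strand, and Reg3g, chr6:78466269-78468874, minus strand). Reg3b was 197 and 456 FPKM in the Lgr5-CREPTWT mice and 121 and 262 FPKM in the Lgr5-CREPTKO mice. Mouse 2 was the higher of each genotype, by 2.31-fold and 2.17-fold, and the genotypes overlapped. Reg3b had a log2 fold change of -0.75 (SE 0.524, 95% interval -2.10 to 0.59; adjusted p = 0.433, limma). Reg3g was 151 and 311 FPKM in the Lgr5-CREPTWT mice and 59.6 and 145 FPKM in the Lgr5-CREPTKO mice. It was the 1 member whose genotypes did not overlap, with the higher Lgr5-CREPTKO mouse just below the lower Lgr5-CREPTWT mouse, and both Lgr5-CREPTKO mice were below both Lgr5-CREPTWT mice in 31% of all genes tested and above both in 25.6%. Reg3g had a log2 fold change of -1.21 (SE 0.526, 95% interval -2.56 to 0.14), with an unadjusted p of 0.0692 and an adjusted p of 0.239 (limma). Mouse 2 was 2.06-fold and 2.44-fold above mouse 1 within the genotypes, so the gap inside each genotype was about as wide as the gap between them.

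Reg3b and Reg3g kept close to each other, with a Reg3b to Reg3g ratio of 1.31 and 1.47 in the Lgr5-CREPTWT mice and 2.02 and 1.80 in the Lgr5-CREPTKO mice. The 250 bases before the start of each gene, from RefSeq on GRCm38.p6, are shown because the levels of the 2 genes moved together. Capitals mark TATAAA and the longest run that both stretches hold at the same distance from the start, the 20 bases directly before it. The stretch of Reg3b is chr6:78370635-78370884 on the plus strand and that of Reg3g is chr6:78468875-78469124 on the minus strand.
Reg3b: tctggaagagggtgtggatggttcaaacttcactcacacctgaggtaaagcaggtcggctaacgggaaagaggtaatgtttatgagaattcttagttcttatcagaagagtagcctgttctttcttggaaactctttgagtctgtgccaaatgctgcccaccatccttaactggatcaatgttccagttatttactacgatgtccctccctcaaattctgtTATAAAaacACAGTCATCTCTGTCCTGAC
Reg3g: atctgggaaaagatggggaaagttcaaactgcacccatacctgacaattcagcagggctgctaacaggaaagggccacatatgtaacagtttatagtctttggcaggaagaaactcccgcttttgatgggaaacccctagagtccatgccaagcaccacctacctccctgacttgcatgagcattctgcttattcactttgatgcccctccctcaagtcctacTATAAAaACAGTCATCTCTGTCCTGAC
TATAAA begins 29 bases before the start in Reg3b and 27 bases before it in Reg3g, and 68.9% of the columns of a global alignment of the 2 stretches were identical. The same 6 letters, searched on both strands in the 250 bases before the start, occur in 12.4% of the 32851 RefSeq promoters. Searched on the forward strand alone, from 40 to 20 bases before the start, they occur in 1.91%. A match to these letters describes the sequence and does not show that a factor binds there.

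**Figure D2:**
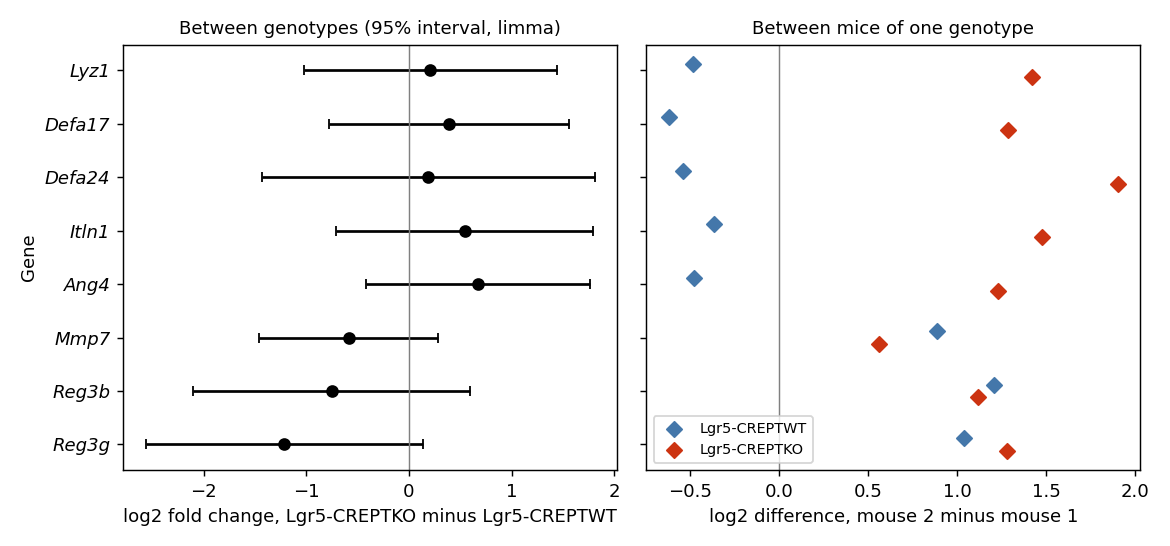
Left, log2 fold change of each gene, Lgr5-CREPTKO minus Lgr5-CREPTWT, on the log2(FPKM + 0.5) scale, with the 95% interval from limma; right, the log2 difference between mouse 2 and mouse 1 within each genotype. All 8 intervals on the left include 0, and on the right the red points are all above 0 while the blue points are below 0 for 5 genes and above 0 for Mmp7, Reg3b and Reg3g.

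By their level in the 4 mice the members fell into the order Defa24 (mean 592 FPKM), Defa17 (360), Reg3b (259), Lyz1 (249), Reg3g (167), Itln1 (147), Mmp7 (42.4) and Ang4 (29.1). The ranges over the mice of neighbouring genes overlapped at every step except that from Itln1 to Mmp7, where the lowest Itln1 value was 96.4 FPKM and the highest Mmp7 value 67.0 FPKM. Summed over the 8 genes, the level was 1742 and 1771 FPKM in the Lgr5-CREPTWT mice and 1011 and 2852 FPKM in the Lgr5-CREPTKO mice. The antimicrobial transcripts so made up 0.351% and 0.355% of all FPKM in the first genotype and 0.216% and 0.602% in the second.

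The 8 genes followed 2 patterns over the mice. Lyz1, Defa17, Defa24, Ang4 and Itln1 summed to 1358 and 938 FPKM in the Lgr5-CREPTWT mice and 804 and 2405 FPKM in the Lgr5-CREPTKO mice, with the second Lgr5-CREPTKO mouse highest. Reg3b and Reg3g summed to 348 and 766 FPKM and to 180.2 and 407 FPKM, with the second Lgr5-CREPTWT mouse highest. Between the Lgr5-CREPTWT mice the lysozyme and defensin genes were therefore lower in mouse 2, where the Reg3 genes and Mmp7 were higher.

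The ratio to Lyz1 within each mouse is given for the first 5 genes. They were grouped by their pattern over these same mice, so steady ratios follow from the grouping. For Defa24 the ratio was 2.33 and 2.24 in the Lgr5-CREPTWT mice and 1.90 and 2.66 in the Lgr5-CREPTKO mice. The Itln1 to Lyz1 ratio was 0.493 and 0.535 in the Lgr5-CREPTWT mice and 0.635 and 0.661 in the Lgr5-CREPTKO mice, and that of Defa17 to Lyz1 was 1.42 and 1.29 and then 1.61 and 1.47. The Ang4 to Lyz1 ratio was 0.0980 and 0.0977 in the Lgr5-CREPTWT mice and 0.144 and 0.128 in the Lgr5-CREPTKO mice. The ratio of Reg3g to Lyz1, by contrast, ran from 0.357 in Lgr5-CREPTKO mouse 2 to 1.71 in Lgr5-CREPTWT mouse 2.

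Likeness to Lyz1 was measured as the root mean square difference of centred log2 values over the 4 mice, among 451 genes whose mean reached 5 FPKM and whose range reached 1 on the log2 scale. The 5 nearest genes were Defa17 (0.113), the small nuclear RNA gene Rnu1a1 (0.123), Nfkbid (0.158), Defa24 (0.172) and Itln1 (0.173), so 3 of the 5 were members, and Ang4 ranked 9 (0.241). The 5 genes nearest to Reg3g were Clca1 (0.0704), Zg16 (0.153), Barx2 (0.167), AW112010 (0.173) and H2-Q7 (0.229), with Reg3b next (0.245) and Mmp7 at rank 30 (0.407). Clca1 and Zg16 encode secreted proteins of goblet cell mucus. Clca1 was 31.2 and 64.4 FPKM in the Lgr5-CREPTWT mice and 13.5 and 29.6 FPKM in the Lgr5-CREPTKO mice, the same order as Reg3g. These are descriptions over 4 libraries.

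The wider alpha-defensin family was read from 29 rows of the table, of which 26 reached a mean of 0.5 FPKM and were tested. Of these 26, 0 had an adjusted p below 0.05 and 2 an unadjusted p below 0.05 (limma), beside 3.08% and 24.5% of all genes tested. The log2 fold change was above 0 in 23 of them, with a median of 0.64. Some rows reached the mean through 1 mouse alone, so these counts describe the rows and support no direction. Gm10104 and Gm21002, which RefSeq names Defa35 and Defa33, were outside the 29 rows and the sums given next. The family summed to 2108 and 1369 FPKM in the Lgr5-CREPTWT mice and to 1457 and 4685 FPKM in the Lgr5-CREPTKO mice, and Lgr5-CREPTKO mouse 2 was the highest of the 4 in 20 of the 26 rows. Gm15284, the third most abundant row, was 175 and 97.7 FPKM and then 84.7 and 326 FPKM. Defa2 was 65.7 and 28.3 FPKM in the Lgr5-CREPTWT mice and 41.7 and 377 FPKM in the Lgr5-CREPTKO mice, a wider gap between the Lgr5-CREPTKO mice than in any member. All of the 50-base words of Defa2 occur in other genes.

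**Figure D3:**
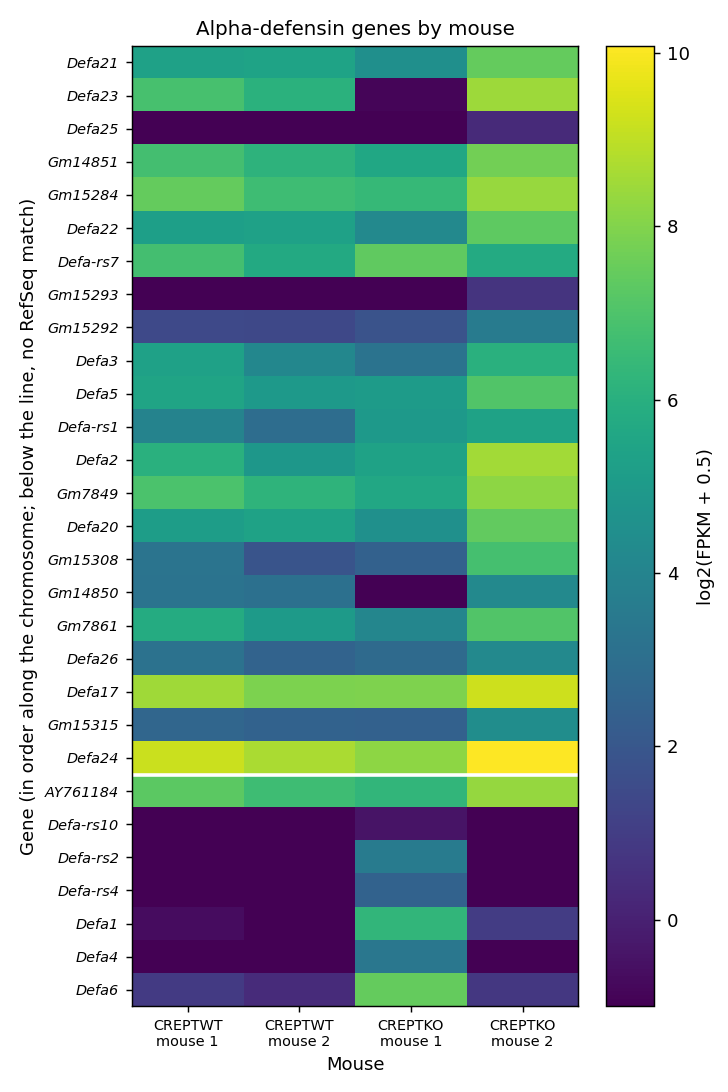
log2(FPKM + 0.5) of the 29 alpha-defensin rows (vertical) in the 4 mice (horizontal), ordered along the chromosome, with the 7 rows without a RefSeq match below the white line. Lgr5-CREPTKO mouse 2 is brightest in most rows above the line, and Lgr5-CREPTKO mouse 1 is the 1 column with bright cells for Defa6 and Defa1 and dark cells for Defa23 and Gm14850.

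Lgr5-CREPTKO mouse 1 held a different set of alpha-defensin rows from the other 3 mice. The rows named here were picked after their values were seen. Defa6 was 1.36 and 0.79 FPKM in the Lgr5-CREPTWT mice and 175 and 1.23 FPKM in the Lgr5-CREPTKO mice. Defa1 was 0.15 and 0 FPKM and then 78.9 and 1.48 FPKM. Defa-rs2, Defa4 and Defa-rs4 were listed at 0 in the other 3 mice and at 11.6, 10.1 and 5.03 FPKM in Lgr5-CREPTKO mouse 1. The 5 rows together came to 280.5 FPKM in that mouse and to between 0.79 and 2.71 FPKM in each of the others, and none of the 5 has a match in RefSeq on GRCm38.p6 or in GENCODE M21. Gm10104, outside the rows read for the family, was also high in that mouse alone, at 16.5 FPKM, and RefSeq does hold it, as Defa35.

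The opposite was seen for 2 rows that both annotations hold. Defa23, whose sequence is printed above, was 114 and 67.7 FPKM in the Lgr5-CREPTWT mice and 0.05 and 355 FPKM in the Lgr5-CREPTKO mice. Gm14850 was 8.9 and 7.89 FPKM and then 0 and 18.2 FPKM. With these included, the 22 listed rows with a RefSeq match summed to 1953 and 1270 FPKM and to 1097 and 4359 FPKM. Lgr5-CREPTKO mouse 1 was thus the lowest of the 4 mice there, as it was for Lyz1. Over all 29 rows it was not, at 1457 FPKM beside 1369 FPKM in Lgr5-CREPTWT mouse 2. The alpha-defensin gene content of inbred mouse strains differs, and the genetic background of the single mice was not tested. Defa17 shares 50-base words with 15 other annotated genes and Defa24 with 9, so the division of reads in that mouse is uncertain for both.

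Paneth cell genes were read from a list of 17, mostly secreted products but also Nupr1, a nuclear stress protein, and Copz2, a coatomer subunit. Of these 16 were tested, 6 of them members. In 15 of the 16, Lgr5-CREPTKO mouse 2 was above mouse 1, and the median log2 fold change was 0.21. Of the list, 1 gene fell with an adjusted p below 0.05, as 3.08% of all genes tested had in either direction. That was Ttr, which encodes transthyretin, a carrier of thyroid hormone. It was 23.7 and 18.7 FPKM in the Lgr5-CREPTWT mice and 9.97 and 10.1 FPKM in the Lgr5-CREPTKO mice (log2 fold change -1.03, SE 0.133, adjusted p = 0.0376, limma). Mptx2, a mucosal pentraxin and Paneth cell marker, was 19.9 and 17.5 FPKM and then 11.8 and 58.8 FPKM. Its neighbour Mptx1 was 2.64 and 2.17 FPKM and then 30.5 and 4.90 FPKM, the exception in which mouse 1 was the higher. The 2 genes share 17.9% of the words of Mptx1.

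In the angiogenin family, 3 of 7 genes were tested. With an adjusted p below 0.05, as in 3.08% of all genes tested, 1 of these fell, Ang. It was 26.0 and 29.4 FPKM in the Lgr5-CREPTWT mice and 17.0 and 17.6 FPKM in the Lgr5-CREPTKO mice (log2 fold change -0.66, SE 0.0932, adjusted p = 0.0420, limma). Rnase4, a ribonuclease transcribed from the same locus, was 74.7 and 74.4 FPKM and then 56.3 and 57.7 FPKM and did not pass (adjusted p = 0.0560, limma). Ang shares 10.7% of its 50-base words with Rnase4. For both genes the mice of 1 genotype lay close together, unlike Ang4. Of the 7 Reg genes 5 were tested, with a median log2 fold change of -0.49. Of these 5, 0 had an adjusted p below 0.05 and 1 an unadjusted p below 0.05 (limma), beside 3.08% and 24.5% of all genes tested. The other 2 abundant ones were Reg1, at 42.3 and 71.9 FPKM and then 33.6 and 45.3 FPKM, and Reg4, at 15.3 and 10.2 FPKM and then 19.1 and 22.5 FPKM, the single Reg gene tested whose log2 fold change was above 0.

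A list of 8 regulators was tested, 7 of them transcription factors that act in Paneth and other secretory cells and 1, Nod2, an intracellular sensor of bacteria. In 0 of the 8 was Lgr5-CREPTKO mouse 2 at least 2-fold above mouse 1. All 8 had a log2 fold change below 0, with a median of -0.61, and in 7 both Lgr5-CREPTKO mice were below both Lgr5-CREPTWT mice, as in 31% of all genes tested. With an adjusted p below 0.05, as in 3.08% of all genes tested, 1 of the 8 fell. That was Xbp1, a regulator of the secretory pathway and the unfolded protein response, at 66.8 ± 5.03 FPKM in Lgr5-CREPTWT and 34.4 ± 4.01 FPKM in Lgr5-CREPTKO cells (SD, n = 2 each; log2 fold change -0.95, SE 0.110, adjusted p = 0.0336, limma). Sox9, which Paneth cells need to form and which stem cells also express, was 42.4 and 41.6 FPKM and then 39.7 and 41.6 FPKM. Atoh1, the switch to the secretory lineage, was 5.18 and 9.52 FPKM and then 4.93 and 2.99 FPKM (adjusted p = 0.241, limma), so Lgr5-CREPTKO mouse 2 had the least Atoh1 and the most Lyz1. Of the niche ligands and surface proteins, 7 of 8 were tested, 0 had an adjusted p below 0.05 and 5 an unadjusted p below 0.05 (limma; 24.5% of all genes tested), 4 lower and 1 higher, with a median log2 fold change of -0.25. The 3 most abundant were Cd24a, a surface protein used to sort Paneth cells (255 ± 11.5 and 215 ± 14.9 FPKM, SD, n = 2 each), Ephb3, a receptor that positions Paneth cells (29.0 ± 2.02 and 36.0 ± 2.30 FPKM), and Fgfr3, a growth factor receptor (14.3 and 11.7 FPKM and then 11.1 and 11.4 FPKM).

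Among genes of microbial sensing and Reg3 induction, 12 of 15 were tested and the median log2 fold change was -0.12. With an adjusted p below 0.05 (3.08% of all genes tested), 1 of the 12 fell. Ticam1, an adaptor of Toll-like receptors, was 11.6 ± 1.18 FPKM in Lgr5-CREPTWT and 5.15 ± 1.07 FPKM in Lgr5-CREPTKO cells (SD, n = 2 each; log2 fold change -1.11, adjusted p = 0.0460, limma). Stat3, through which interleukin-22 induces the Reg3 genes, was 12.7 and 19.4 FPKM and then 15.4 and 16.3 FPKM. Il22ra1, which encodes a subunit of the interleukin-22 receptor, was 8.94 and 9.57 FPKM and then 7.03 and 8.17 FPKM (adjusted p = 0.232, limma). Stat3 was thus higher in Lgr5-CREPTWT mouse 2 than in mouse 1, as Reg3b and Reg3g and 9 of the 12 genes tested were. Between the Lgr5-CREPTKO mice Stat3 was nearly level, where Reg3b and Reg3g were 2.17-fold and 2.44-fold apart. A link of Stat3 to the Reg3 levels was not tested.

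Of 18 other mucosal defence genes, 11 were tested, and 11 had a log2 fold change below 0 with a median of -0.94. An adjusted p below 0.05, as in 3.08% of all genes tested, was reached by 3 of the 11, each lower. Lypd8, a protein that keeps flagellated bacteria from the epithelium, was 804 ± 122 and 365 ± 40.5 FPKM (SD, n = 2 each; log2 fold change -1.13, adjusted p = 0.0373, limma). Pglyrp1, which binds peptidoglycan, was 163 ± 26.5 and 93.5 ± 0.997 FPKM (SD, n = 2 each; log2 fold change -0.79, adjusted p = 0.0479, limma). Lcn2, which withholds iron from bacteria, was 3.16 ± 1.31 and 0.470 ± 0.0141 FPKM (SD, n = 2 each; log2 fold change -1.87, adjusted p = 0.0492, limma). Zg16, the goblet cell lectin near Reg3g in pattern, was 129 and 287 FPKM and then 59.9 and 165 FPKM and did not pass (adjusted p = 0.388, limma). The calls of Ang, Ttr, Xbp1, Ticam1, Lypd8, Pglyrp1 and Lcn2 were all lost when any 1 mouse was left out, with adjusted p-values between 0.123 and 0.307, and each kept its direction.

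**Figure D4:**
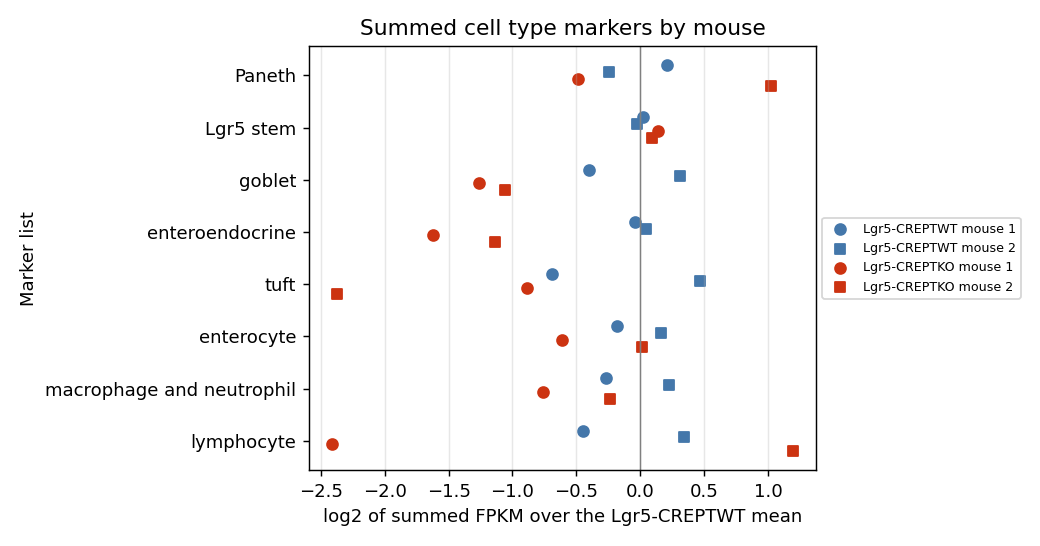
log2 of the summed FPKM of each marker list over the mean of the Lgr5-CREPTWT mice (horizontal), by list (vertical), with 1 point per mouse. Paneth and lymphocyte markers are highest in Lgr5-CREPTKO mouse 2 and lowest in Lgr5-CREPTKO mouse 1, while the summed stem cell markers, most of them Olfm4, lie closest together.

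Markers of some other cells moved with some members and those of others did not, and their part in the results was not tested. The 12 Paneth cell markers, 6 of them members, summed to 1441 and 1049 FPKM in the Lgr5-CREPTWT mice and to 888 and 2537 FPKM in the Lgr5-CREPTKO mice, and 11 of the 12 were higher in Lgr5-CREPTKO mouse 2 than in mouse 1. The 10 stem cell markers summed to between 5961 and 6690 FPKM, most of it Olfm4. All 10 had a log2 fold change above 0, and 9 had both Lgr5-CREPTKO mice above both Lgr5-CREPTWT mice (25.6% of all genes tested). An unadjusted p below 0.05 was found for 5 and an adjusted p below 0.05 for 0 (limma), beside 24.5% and 3.08% of all genes tested. Lymphocyte markers followed the lysozyme and defensin genes in the Lgr5-CREPTKO mice: 9 genes summed to 18.4 and 31.8 FPKM and to 4.70 and 57.4 FPKM, and all 6 tested were at least 2-fold higher in mouse 2, led by Gzma at 2.09 and 35.1 FPKM, while the B cell markers Cd79a, Jchain and Ms4a1 were at most 0.43 FPKM. Enterocyte markers, at 721 and 912 FPKM and then 533 and 826 FPKM over 10 genes, were higher in mouse 2 of the Lgr5-CREPTKO mice in 10 of 10 and in mouse 2 of the Lgr5-CREPTWT mice in 10 of 10. Macrophage and neutrophil markers summed to between 14.1 and 28.1 FPKM over 10 genes.

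Goblet cell markers summed to 1573 and 2587 FPKM and then 865 and 997 FPKM over 10 genes. They were highest in Lgr5-CREPTWT mouse 2, as Reg3b and Reg3g were. The enterocyte, enteroendocrine, tuft cell, and macrophage and neutrophil sums were also highest in that mouse. Between the Lgr5-CREPTKO mice the goblet sum differed less than that of Reg3b and Reg3g (180.2 and 407 FPKM). Of the 10 goblet genes 2, Spink4 and Ern2, fell (adjusted p = 0.0333 and 0.0473, limma), where 3.08% of all genes tested had an adjusted p below 0.05. Enteroendocrine markers summed to 160 and 170 FPKM and to 53.7 and 74.9 FPKM over 10 genes, with 5 of the 9 tested lower past the test, beside the same 3.08%. Tuft cell markers summed to 22.7 and 50.6 FPKM and to 19.8 and 7.06 FPKM over 7 genes, lowest in the mouse with the most Paneth cell products.

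With 2 mice per genotype, the sign of the log2 fold change of 4 of the 8 members, Lyz1, Defa17, Defa24 and Itln1, depended on which mouse was left out. Without Lgr5-CREPTKO mouse 1, the log2 fold change was 0.92 for Lyz1, 1.03 for Defa17, 1.14 for Defa24, 1.29 for Ang4 and 1.28 for Itln1. Without Lgr5-CREPTKO mouse 2, it was -0.50, -0.25, -0.76, 0.06 and -0.19. Reg3g stayed below 0 throughout, between -1.85 and -0.57, as did Reg3b, between -1.36 and -0.15, and Mmp7, between -1.03 and -0.14, when each mouse was left out in turn. In none of these fits did a member have an adjusted p below 0.05 (limma), the lowest being 0.209 for Itln1.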

How the data were processed

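RNA of sorted cells from 2 Lgr5-CREPTWT and 2 Lgr5-CREPTKO mice was compared, with genotypes taken from the sample titles. The authors deposited FPKM values per gene symbol and mouse. By the study's methods for RNA-seq, given for crypts and intestines and not for sorted cells, reads were mapped to GRCm38.p6 transcripts with Bowtie2 and quantified with RSEM. The submitters' processing notes also name HISAT and mm10. FPKM is relative to each library's total, so a value depends on all other genes in that mouse.

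The 12621 of 18436 genes whose mean reached 0.5 FPKM were fitted as log2(FPKM + 0.5) with limma 3.58.1 in R 4.3.3 (lmFit, eBayes with an intensity trend; two-sided) with Benjamini-Hochberg adjustment over all genes tested, and tested on simulated data. The study's count model could not be fitted to FPKM. Tables were made in Python 3.11.15 with pandas 2.3.3. All 8 members were named; from each list, genes with an adjusted p below 0.05 or the 3 most abundant; and the 5 genes nearest to Lyz1 and to Reg3g. Alpha-defensin rows that single mice held, Defa2, Mptx1, Mptx2, Rnase4, Reg4, Sox9, Atoh1, Stat3, Il22ra1, Lyz2 and the cell type markers named lie outside this rule, a choice made with their values in view. Members and lists were chosen with earlier results of these data known. Coordinates are RefSeq's on GRCm38.p6, and 6 of the 8 members had a promoter in its table. Alternatives varied the pseudocount, filter, scaling, trend, replicate block and mice. Same-numbered mice are different animals. The other experiments were not analysed here.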

Additional observations from a re-analysis of the deposited data

How the results depend on the processing

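The number of members with an adjusted p below 0.05 stayed at 0 under each pseudocount, filter, scaling, trend and mouse left out, and was 2 with the replicate block, Reg3b (adjusted p = 0.0412, limma) and Reg3g (adjusted p = 0.0316, limma). The sample titles give replicate numbers and do not say that same-numbered mice were paired. Across 12621 genes, the difference between mouse 2 and mouse 1 correlated at -0.03 between the genotypes. That value describes all genes together and does not settle whether some genes shared an effect, which was not tested. Over all genes, 128 were lower and 16 higher past the threshold; these became 337 and 52 with the adjusted p alone, 0 and 0 with no filter on low values, 4 and 0 without the intensity trend, and 101 and 8 with the block. With each mouse left out the counts were between 0 and 0 lower and between 0 and 0 higher, fits with 1 mouse in an arm that is assumed to vary like the others. The median log2 fold change of the members ran from -0.63 to 0.98 when a mouse was left out, -0.63 without Lgr5-CREPTKO mouse 2 and 0.98 without mouse 1. It was -0.19 without Defa17 and Defa24, the 2 members with near-identical relatives, so its sign also turned there.

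The direction of a single member turned in 6 instances, all with a mouse left out: Lyz1 (-0.03) and Defa24 (-0.08) without Lgr5-CREPTWT mouse 2, and Lyz1 (-0.50), Defa17 (-0.25), Defa24 (-0.76) and Itln1 (-0.19) without Lgr5-CREPTKO mouse 2. Each of these 4 genes had its own highest value without Lgr5-CREPTKO mouse 1 (0.92, 1.03, 1.14 and 1.28 for Lyz1, Defa17, Defa24 and Itln1). Ang, Ttr, Xbp1, Ticam1, Lypd8, Pglyrp1 and Lcn2 kept their direction under every alternative and lost their adjusted p below 0.05 without the filter, without the trend and with any mouse left out. Further losses (adjusted p from limma) were those of Ang with the block (0.0539), Ticam1 with TPM scaling (0.0511), Pglyrp1 with quantile (0.0544) and TPM (0.0550) scaling and the block (0.0539), and Lcn2 with a pseudocount of 1 (0.0564), quantile (0.0613) and TPM (0.0523) scaling and the block (0.0539). The cause was not tested. With FPKM alone, no interval for counting error could be given.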

Other observations

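Genes in which 1 mouse stood more than 2 on the log2 scale from all the others were counted, leaving out small RNAs. There were 13 above and 4 below in Lgr5-CREPTKO mouse 1, 5 above and 0 below in Lgr5-CREPTKO mouse 2, 2 above and 2 below in Lgr5-CREPTWT mouse 2 and 0 in Lgr5-CREPTWT mouse 1. Of the 13, 5 were rows of the alpha-defensin list and 6 had no RefSeq match. Beside the alpha-defensins, Lgr5-CREPTKO mouse 1 was high in Aim2, which encodes a sensor of cytosolic DNA, at 1.55, 1.68, 19.2 and 1.82 FPKM in Lgr5-CREPTWT mice 1 and 2 and Lgr5-CREPTKO mice 1 and 2. Gm10104, an alpha-defensin row outside that list, which RefSeq names Defa35, was 0, 0.92, 16.5 and 0.63 FPKM in the same order. Itlnb, an intelectin row with no RefSeq match, was listed at 0 in the other 3 mice and at 2.22 FPKM in Lgr5-CREPTKO mouse 1. H2-Q6, a class Ib histocompatibility gene, was 1.96, 5.15, 0 and 2.29 FPKM. In Lgr5-CREPTKO mouse 2, 4 of the 5 rows that stood above were alpha-defensins, and the other was the trefoil factor Tff2 at 0.1, 0, 0.2 and 2.39 FPKM. In Lgr5-CREPTWT mouse 2, Gm21002, which RefSeq names Defa33, was 5.24 FPKM and at most 0.02 FPKM in the others. These genes were chosen after their values were seen.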
